A study of Mus musculus with 11 samples.

Results

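Newly made RNA was compared between C2C12 cells that received a hairpin against Zc3h10 and C2C12 cells that received a scrambled hairpin. C2C12 is an established line of mouse myoblasts, the dividing precursors of muscle fibres. Both hairpins were expressed from the U6 promoter in an adenovirus, added at a multiplicity of infection of 100, so the scramble cells were infected too. Confluent cells of both groups were given 4-thiouridine (4sU, 300 µM) for 30 min, and RNA containing the label was biotinylated and pulled down with streptavidin. The comparison takes the 5 libraries of 4sU RNA out of the 11 libraries of the series, 3 labelled shZc3h10 and 2 labelled scramble. Each library has 1 count per gene over exons and 1 over introns, which gives 10 of the 22 count files. The remaining 6 libraries are of total RNA and serve only as a reference for the share of intronic reads. The labels do not say whether libraries of a group are separate cultures. The p-values then measure only how these libraries vary, and that variation may be technical.

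4sU is a uridine analogue that cells build into RNA while it is transcribed. RNA recovered after a short pulse therefore comes mostly from recent transcription and is rich in introns, which splicing removes and the nucleus degrades soon after they are copied. The intron signal of a gene follows its transcription, whereas the exon signal also carries spliced RNA. Zc3h10 encodes a CCCH zinc finger protein, a class in which many members bind RNA, and the series addresses its part in mitochondria, iron and cardiolipin.

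Exons gave 10369374 to 19690198 counts per 4sU library and introns 26272902 to 41597832. Introns made up 71.1%, 71.7% and 70.2% of all counts in the shZc3h10 libraries and 67.9% and 68.4% in the scramble libraries, against 10.7% to 21.9% in total RNA. Every shZc3h10 library thus had a higher intronic share than both scramble libraries. Levels are given as CPM, counts relative to library size after scaling by the trimmed mean of M values (TMM), separately for exons and introns. Fold changes are shZc3h10 minus scramble on the log2 scale with a standard error (SE), and a gene is called higher or lower when edgeR's Benjamini-Hochberg adjusted p is below 0.05. Because each set of counts was scaled on its own, a shift common to all introns does not appear in the intronic fold changes.

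Zc3h10 itself (Entrez 103284) was lower in the libraries that carry its hairpin, without passing the test. Its exons stood at 13.2, 18.8 and 12.8 CPM with shZc3h10 and at 21.5 and 20.1 CPM with scramble. The log2 fold change was −0.49 (SE 0.19, edgeR's adjusted p = 0.128). Its introns stood at 1.49, 1.23 and 1.76 CPM against 3.22 and 2.65 CPM, and the log2 fold change was −0.97 (SE 0.35, edgeR's adjusted p = 0.0842). All 3 shZc3h10 libraries were below both scramble libraries in exons and in introns. An exact two-sided permutation test of CPM gave p = 0.2 for exons and p = 0.1 for introns, where 0.1 is the smallest value these groups allow. As background, short hairpins act mainly on finished transcripts in the cytoplasm. The groups are named by their labels throughout.

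Over all genes, changes ran in both directions and were centred on 0. Of 13637 genes tested in exons, 772 were higher and 640 lower, 10.4% in all (5.66% higher and 4.69% lower). Of 13553 genes tested in introns, 1213 were higher and 890 lower, 15.5% in all (8.95% higher and 6.57% lower). The median log2 fold change was 0.00 in exons and 0.01 in introns, with the interquartile range from −0.22 to 0.23 in exons and from −0.21 to 0.31 in introns. The median fold among called genes was 1.77 in exons and 1.59 in introns. Changes over 2-fold leaned upwards, with 355 higher against 160 lower in exons and 500 higher against 135 lower in introns. When intronic counts were instead scaled by the exonic library sizes, 2096 genes were higher and 518 lower in introns, so that 80.2% of calls were higher, in place of 57.7%. With that scaling the median of all genes was 0.14 on the log2 scale, in place of 0.01. Without scramble library 1, 724 genes were called in exons and 935 in introns, and without shZc3h10 library 3, 924 were called in exons. Leaving out a scramble library leaves 1 in that group, which is then assumed to vary like the shZc3h10 libraries, and smaller groups give fewer calls by themselves. Counts without 1 library, here and for the families, are to be read with that in mind. Of the genes called in exons, 22 higher and 23 lower ones have no entry in the intron files.

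Genes were placed in 90 families by symbol, grouped into 11 functional groups. The families hold 3555 of the genes tested in exons and 510 of those called, so 902 called genes lie outside them. Called genes were spread unevenly over the groups. Matrix genes had the highest share called in exons, 39.5% of 185 tested (58 higher, 15 lower), followed by secreted signals and their receptors with 33.2% of 226 (51 higher, 24 lower). Cytoskeletal genes had 30.0% of 170 (25 higher, 26 lower), and guidance and adhesion genes 27.4% of 135 (21 higher, 16 lower). A mixed group of 3 families, labelled feedback, had 25% of 100 (14 higher, 11 lower), and its families differed in direction. Dual specificity phosphatases, Sprouty and Spred genes had 1 higher and 10 lower of 28. RGS genes with adrenergic or peptide hormone receptors had 7 higher and 1 lower of 24. SOCS inhibitors with interferon-stimulated genes had 6 higher and 0 lower of 48. Cell cycle genes were called almost only downwards, 1 higher and 43 lower of 225 in exons, and 2 higher and 65 lower of 186 in introns. Stress genes also leaned downwards, 13 higher and 30 lower of 253. Transcription factors, with 11.1% of 577 called, lay close to the 10.4% of all genes. Mitochondrial and metabolic genes, with 6.08% of 510, and genes of RNA and protein handling, with 5.21% of 1075, lay below it.

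**Figure D1:**
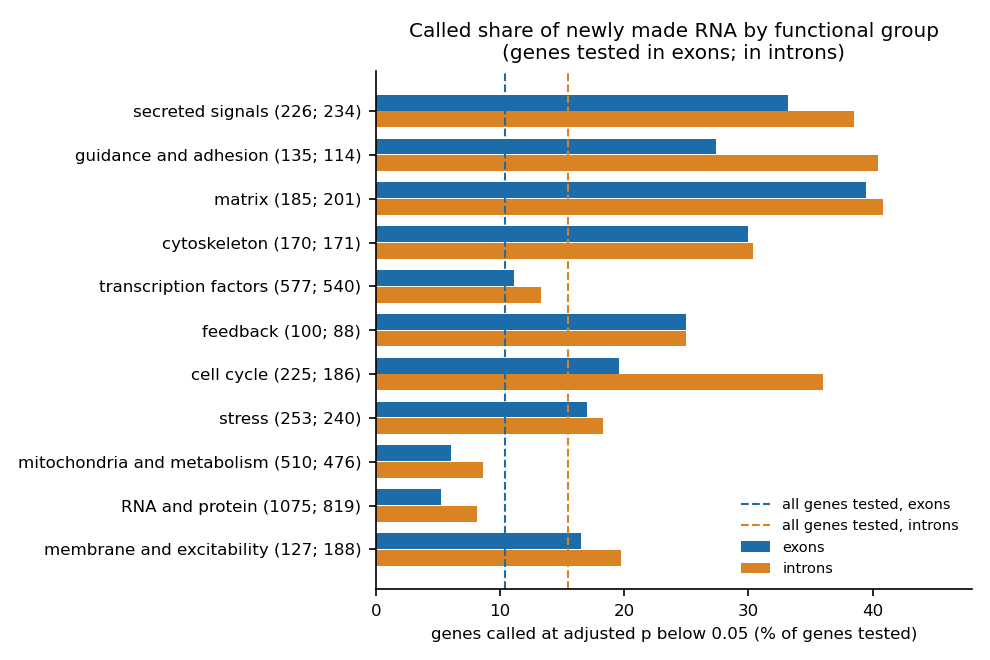
Share of tested genes called in exons (blue bars) and in introns (orange bars) for each of the 11 functional groups, in percent, with the number of genes tested in brackets. Dashed lines give the share over all genes, 10.4% in exons and 15.5% in introns. Matrix genes reach 39.5% and 40.8%, while mitochondrial and metabolic genes stand at 6.08% and 8.61%.

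Promoter windows of 3 called genes are shown first, each with the element whose share among promoters is given after them. The windows are RefSeq's on GRCm38.p6, 250 bases before to 50 after each annotated start, whereas the reads were aligned to mm9. Of 13637 genes tested in exons, 10639 had a window. A match is a description of these letters only. The smooth muscle gene Myl9, which encodes a regulatory light chain of myosin and was higher, is shown with its CArG box, the element bound by serum response factor, in capitals (chr2:156775214-156775513, plus strand).
Myl9: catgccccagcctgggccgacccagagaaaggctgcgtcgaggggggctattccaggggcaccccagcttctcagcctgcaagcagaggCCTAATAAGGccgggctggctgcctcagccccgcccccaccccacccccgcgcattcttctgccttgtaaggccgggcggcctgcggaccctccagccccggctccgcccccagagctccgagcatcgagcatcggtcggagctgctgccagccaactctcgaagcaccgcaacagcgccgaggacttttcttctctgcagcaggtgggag
Asparagine synthetase (Asns), a textbook target of the stress factor ATF4 that was lower, is shown with its ATF4 response element TGATGNAA in capitals (chr6:7693160-7693459, minus strand).
Asns: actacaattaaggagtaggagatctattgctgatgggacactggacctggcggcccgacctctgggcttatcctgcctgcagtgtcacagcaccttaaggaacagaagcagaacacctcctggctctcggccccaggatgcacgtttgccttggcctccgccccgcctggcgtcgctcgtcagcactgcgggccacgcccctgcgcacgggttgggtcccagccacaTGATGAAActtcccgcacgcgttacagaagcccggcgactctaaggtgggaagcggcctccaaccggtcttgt
Cdk1, the kinase that drives entry into mitosis and that was lower, is shown with 2 copies of the cell cycle homology element TTTGAA (CHR), bound by repressor and activator complexes of mitotic genes, in capitals (chr10:69352863-69353162, minus strand).
Cdk1: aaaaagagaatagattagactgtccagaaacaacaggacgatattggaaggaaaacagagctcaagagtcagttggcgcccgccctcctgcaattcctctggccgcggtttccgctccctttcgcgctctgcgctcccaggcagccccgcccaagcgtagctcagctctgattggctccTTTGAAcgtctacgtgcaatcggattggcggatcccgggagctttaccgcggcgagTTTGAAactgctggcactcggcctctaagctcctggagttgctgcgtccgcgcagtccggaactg

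Shares of windows with an element were counted for 13 motifs, both strands searched and overlaps between motifs allowed, in 10 sets of genes or windows. The values given here were picked from these after they were seen. A CArG box stood in 3.92% of windows of genes higher in exons, 0.952% of windows of genes lower in exons, 1.36% of windows of all tested genes and 1.63% of all windows in the table. Of windows of tested smooth muscle genes, 9.52% held one, 2 of 21. By gene, the counts over exonic calls were 26 of 575 higher genes with a window, 6 of 484 lower genes and 175 of 10639 tested genes. The 26 include Lmcd1 (1.69), Igf2 (2.23), Egr2 (1.33), Lgr4 (1.02), Myl9 (1.08) and Myom1 (1.42), with the log2 fold change in exons in brackets. The CHR element stood in 58.9% of windows of tested mitotic genes against 12.4% of windows of all tested genes and 17.9% of all windows, and the ATF4 response element in 34.6% of windows of integrated stress genes against 2.44% and 3.97%. These last shares cover all tested members of a family, called or not. They say nothing of which members changed. Among genes lower in exons as a whole, the CHR element stood in 14% of windows, near the 12.4% of all tested genes.

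Wnt signalling acts through secreted ligands, Frizzled and LRP receptors and a large set of secreted and cytoplasmic antagonists. Of 18 antagonists and feedback genes tested in exons, 7 were higher and 2 lower, and in introns 8 were higher and 3 lower of 17. Sfrp1, a secreted decoy that binds Wnt proteins, stood at 10.9, 12.9 and 10.3 CPM in exons with shZc3h10 and at 2.32 and 2.34 CPM with scramble. Its introns stood at 12.6, 8.78 and 9.12 CPM against 1.69 and 2.02 CPM. The groups lay far apart in both, with log2 fold changes of 2.28 (SE 0.26, edgeR's adjusted p = 4.63e-06) in exons and 2.46 (SE 0.25, edgeR's adjusted p = 3.32e-05) in introns. Dkk3, a divergent member of the Dickkopf family, rose by 1.31 in both exons and introns, and Lgr4, a receptor for R-spondins, by 1.02 in both. Dkk2 (−0.79 in exons, −1.34 in introns) and Lgr6 (−1.81 and −1.12) fell. Among 13 Frizzled and LRP receptors and their relatives, 3 were higher and 1 lower in exons. Ror1, a receptor for Wnt5a, stood at 9.54, 9.48 and 9.94 CPM in exons against 3.89 and 2.78 CPM, and at 107, 102 and 106 CPM in introns against 44.7 and 48 CPM. On the log2 scale the changes were 1.51 (SE 0.25) and 1.18 (SE 0.10). Of 6 Wnt ligands tested in exons, 1 was higher and 2 were lower, with a median of −0.68, and 1 of the 3 was called without scramble library 1 and 2 without scramble library 2, shZc3h10 library 1 or shZc3h10 library 3. In introns 1 of 14 was higher and 1 lower, with 0 called without scramble library 1 or shZc3h10 library 1, 1 without scramble library 2 or shZc3h10 library 3 and 3 without shZc3h10 library 2. In exons Wnt9a (−0.91) and Wnt10b (−1.18) fell. The ligand Wnt5a rose in exons by 2.18, from levels under 1 CPM, and its intronic difference of 3.36 was not called (edgeR's adjusted p = 0.0643, introns at no more than 0.975 CPM).

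Insulin-like growth factor 1 is a main growth signal of muscle. Igf1 stood at 183, 171 and 180 CPM in exons with shZc3h10 and at 36.4 and 50.0 CPM with scramble, and at 179, 132 and 162 CPM in introns against 37.9 and 39.6 CPM. The corresponding log2 fold changes were 2.05 (SE 0.16, edgeR's adjusted p = 5.44e-08) in exons and 2.02 (SE 0.13, edgeR's adjusted p = 1.63e-06) in introns. Of the genes for its binding proteins, Igfbp3 rose by 2.73 in exons, and Igfbp5, Igfbp2 and Igfbp6 (−0.58) fell. Igfbp5, the main binding protein of myoblasts, stood at 787, 893 and 760 CPM in exons against 1620 and 1530 CPM. The gene fell by 0.95 (SE 0.13) in exons and by 0.64 (SE 0.10) in introns. Igfbp2 fell by 1.02 in exons and by 1.01 in introns, and its exonic value was −0.50 without scramble library 1 (edgeR's adjusted p = 0.371). In all, 3 members were higher and 4 lower of 13 in exons, and 4 higher and 3 lower of 12 in introns.

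Ligands of the BMP and transforming growth factor beta classes, counted together, held 3 higher genes and 1 lower of 13 in exons. In introns 3 were higher and 0 lower of 18, 16.7%. Of all genes, 15.5% were called in introns in either direction and 8.95% were called higher. Tgfb2 stood at 87.1, 88.6 and 94.2 CPM in exons against 37.9 and 35.9 CPM, and at 460, 417 and 448 CPM in introns against 186 and 202 CPM, with log2 fold changes of 1.29 (SE 0.15) and 1.19 (SE 0.09). Tgfb3 rose by 0.99 in exons and by 1.33 in introns. PDGF and VEGF ligands and receptors were called only upwards in exons, 5 of 14, and 8 higher and 1 lower of 15 in introns, where 5 in place of 9 were called without scramble library 1. Pdgfra, the receptor that marks mesenchymal cells, stood at 68.0, 83.2 and 79.2 CPM in exons against 32.1 and 37.4 CPM, and Pdgfrb rose by 0.76 in exons and in introns. EGF family members split. The receptor Egfr (0.97 in exons, 0.92 in introns) and the ligand Ereg (0.74 and 0.66) rose, while the ligands Areg (−1.18 and −0.75) and Hbegf (−0.90 and −0.99) fell. With scramble library 1 left out, 1 EGF family gene in place of 7 was called in introns. Fibroblast growth factors and their receptors had 1 higher and 3 lower of 15 in exons, with a median of 0.04. In introns 6 were higher and 1 lower of 15, with a median of 1.32. Over all genes, those in the lowest of 5 bins by mean intronic CPM had a median of 0.54. The part of low levels in the intronic median of this family was not tested. Among the family's members, Fgf7 rose by 2.08 in exons and Fgf5 fell by 1.74 in exons and by 1.95 in introns.

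Chemokines, small secreted attractants, were called only upwards, 6 of 13 in exons and 4 of 11 in introns, the latter count being 2 without scramble library 1, scramble library 2 or shZc3h10 library 3. Cxcl12 stood at 259, 224 and 301 CPM in exons against 110 and 97.0 CPM, and at 40.5, 38.4 and 44.6 CPM in introns against 19.6 and 17.3 CPM. These give log2 fold changes of 1.33 (SE 0.15) and 1.16 (SE 0.12). Among interleukins, related cytokines and their receptors, 9 were higher and 2 lower of 50 in exons, and 13 higher and 1 lower of 50 in introns. Il1rn, which encodes the natural antagonist of the interleukin 1 receptor, had 193, 187 and 239 CPM in exons against 50.2 and 46.9 CPM, and 113, 72.0 and 127 CPM in introns against 18.4 and 19.7 CPM. The receptors for the interleukin 6 family moved together. Osmr rose by 1.06 in exons and by 0.91 in introns, Lifr by 1.03 and 0.97, and their shared subunit Il6st by 0.55 and 0.51. Of the interferon-stimulated genes and SOCS inhibitors, 6 of 48 were higher in exons and none was lower, 12.5% against 10.4% of all genes, and 6 of 37 in introns, 16.2% against 15.5%. Those shares of all genes count calls in both directions. Of all genes, 5.66% were called higher in exons and 8.95% in introns, which is below the shares of this family. Among the higher members were Gbp9 (2.32 in exons, 2.24 in introns) and Cish (0.82 and 0.84). Without scramble library 1, Gbp9 was at 1.34 in exons (edgeR's adjusted p = 0.304), and without scramble library 2 at 4.48 in exons and 3.44 in introns. The exonic count of 6 became 2 when scramble library 1 was left out and 3 when scramble library 2 was, and the intronic count became 2, 3, 1 and 2 without scramble library 1, scramble library 2, shZc3h10 library 1 and shZc3h10 library 3.

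**Figure D2:**
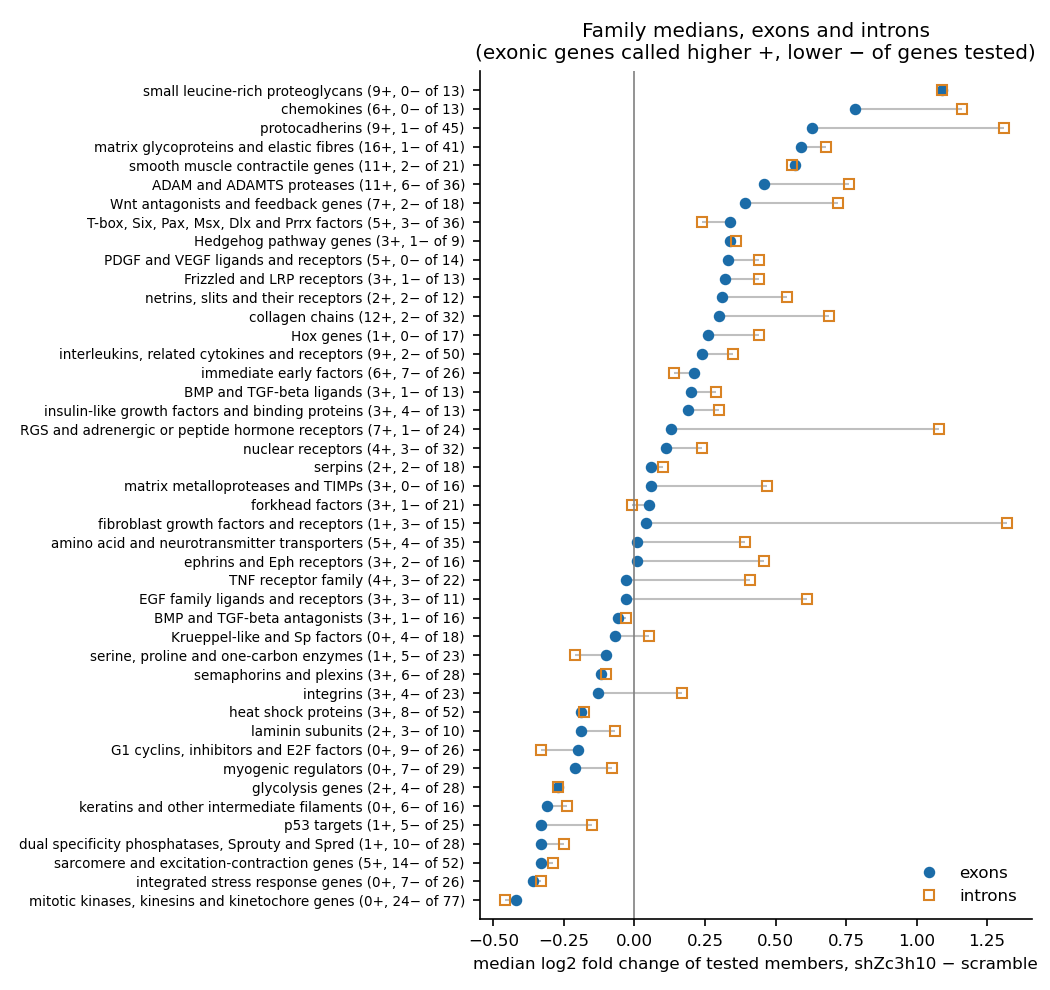
Median log2 fold change of the tested members of a family in exons (filled circles) and introns (open squares). Drawn are the 44 families with at least 8 genes tested in both and a called share over 2 times that of all genes in either. Small leucine-rich proteoglycans have the highest exonic median, 1.09, and mitotic genes the lowest of those drawn, −0.42.

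The extracellular matrix is the network of collagens, glycoproteins and proteoglycans that cells secrete around themselves. Small leucine-rich proteoglycans, which bind collagen fibrils and growth factors, had 9 higher and 0 lower of 13 in exons, and 4 higher and 0 lower of 8 in introns. Bgn, for biglycan, stood at 3200, 2990 and 3090 CPM in exons against 1570 and 1590 CPM, and at 87.2, 104 and 93.2 CPM in introns against 53.2 and 51.4 CPM. That is a log2 fold change of 0.97 (SE 0.13) in exons and 0.86 (SE 0.11) in introns, with no overlap between groups. Collagen chains had 12 higher and 2 lower of 32 in exons and 18 higher and 3 lower of 39 in introns. Col12a1, a chain that decorates the surface of fibrils, had 2230, 1740 and 2170 CPM in exons against 782 and 898 CPM, and 2310, 1660 and 1750 CPM in introns against 748 and 727 CPM. The log2 fold changes were 1.28 (SE 0.15) and 1.37 (SE 0.13). The basement membrane pair Col4a1 and Col4a2 rose in introns, by 0.86 and 0.70. Their exonic values of 0.45 and 0.29 were not called, and the difference between exons and introns was not called either. Col5a3 fell by 1.20 in exons and by 1.17 in introns.

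Matrix glycoproteins and elastic fibre genes had 16 higher and 1 lower of 41 in exons and 21 higher and 1 lower of 47 in introns. Postn, for periostin, stood at 328, 239 and 349 CPM in exons against 164 and 161 CPM, and at 65.2, 39.8 and 52 CPM in introns against 22.3 and 24.4 CPM. Vcan, for the large proteoglycan versican, rose by 0.82 in exons and 1.09 in introns, and Fbln5, for an elastic fibre protein, by 1.15 and 1.03. The count of 17 glycoprotein genes called in exons fell to 10 without shZc3h10 library 3 and to 11 without scramble library 2, and the count of 22 in introns fell to 14 without any of scramble library 1, scramble library 2 and shZc3h10 library 3. Laminins, the cross-shaped proteins of basement membranes, went both ways. Lama1 rose from 4.65 and 6.15 CPM in exons with scramble to 37.2, 34.3 and 31.4 CPM with shZc3h10, and from 8.23 and 6.59 CPM to 43.8, 49.6 and 55.3 CPM in introns. On the log2 scale the changes were 2.68 (SE 0.20) and 2.73 (SE 0.15). Lama5 fell from 442 and 533 CPM to 246, 272 and 224 CPM in exons, which is −0.98 (SE 0.14) on the log2 scale, and by 0.69 in introns.

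Proteases of the ADAM and ADAMTS classes, which cut matrix and surface proteins, had 11 higher and 6 lower of 36 in exons and 13 higher and 3 lower of 39 in introns. Adamts12 had 108, 75.2 and 124 CPM in exons against 22.6 and 27.4 CPM, and 260, 217 and 255 CPM in introns against 69.5 and 75.1 CPM. The corresponding log2 fold changes were 2.04 (SE 0.20) and 1.75 (SE 0.11). Adamts6 (−0.77 in exons, −0.69 in introns) and Adamtsl5 (−1.01 and −1.25) fell. Matrix metalloproteases and their tissue inhibitors (TIMPs), counted together, were called only upwards. The counts were 3 of 16 in exons and 6 of 14 in introns, with Mmp2, for a gelatinase, at 0.84 and 0.90. The intronic count was 3 without scramble library 1 or without shZc3h10 library 3.

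Integrins, the surface receptors that anchor cells to matrix, had 3 higher and 4 lower of 23 in exons and 7 higher and 6 lower of 24 in introns. Itga1, for a chain of a collagen receptor, rose from 3.99 and 6.96 CPM to 32.4, 24.9 and 29.3 CPM in exons and from 11.5 and 10.3 CPM to 57.1, 65.4 and 63.7 CPM in introns. Itga7, for the main laminin receptor of muscle, fell from 1010 and 980 CPM to 474, 475 and 432 CPM in exons and from 637 and 587 CPM to 278, 276 and 251 CPM in introns. The log2 fold changes were 2.43 (SE 0.23) and 2.50 (SE 0.13) for Itga1 and −1.11 (SE 0.13) and −1.19 (SE 0.09) for Itga7. Another chain of laminin receptors, Itga6, fell by 1.0 in exons and by 0.82 in introns, and another of collagen receptors, Itga11, rose by 1.54 and 1.78, while the collagen receptor chain Itga10 fell by 1.53 and 1.34.

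Of 11 cadherins, which join cells of a kind, 1 was higher and 1 lower in exons, and 2 were higher and 2 lower of 22 in introns, 18.2% in both against 10.4% and 15.5% of all genes. The intronic count of 4 became 7 when scramble library 2 was left out and 6 when shZc3h10 library 1 was. Cdh11, typical of mesenchyme, stood at 278, 281 and 328 CPM in exons against 71.1 and 83.8 CPM, and at 1160, 997 and 1160 CPM in introns against 252 and 276 CPM, with log2 fold changes of 1.93 (SE 0.15) and 2.06 (SE 0.10). Cdh15, the cadherin of muscle precursors, stood at 56.1, 59.4 and 57.6 CPM in exons against 101 and 119 CPM, and at 51.9, 65.0 and 58.2 CPM in introns against 121 and 113 CPM, with log2 fold changes of −0.93 (SE 0.14) and −1.01 (SE 0.11). Of 45 protocadherin genes tested in exons, 9 were higher and 1 lower. The clustered members among them share exons with their neighbours, so their separate counts are uncertain, and the count called was 3 without scramble library 1, 4 without shZc3h10 library 3 and 16 without shZc3h10 library 2. Pcdh18, which stands outside the clusters, rose by 1.58 (SE 0.15) in exons and 2.07 (SE 0.14) in introns. Semaphorins and plexins, which guide axons and vessels, had 3 higher and 6 lower of 28 in exons. Plxnd1 (0.65 and 1.0) was higher and Sema4f (−1.41 and −1.60) lower in both parts.

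**Figure D3:**
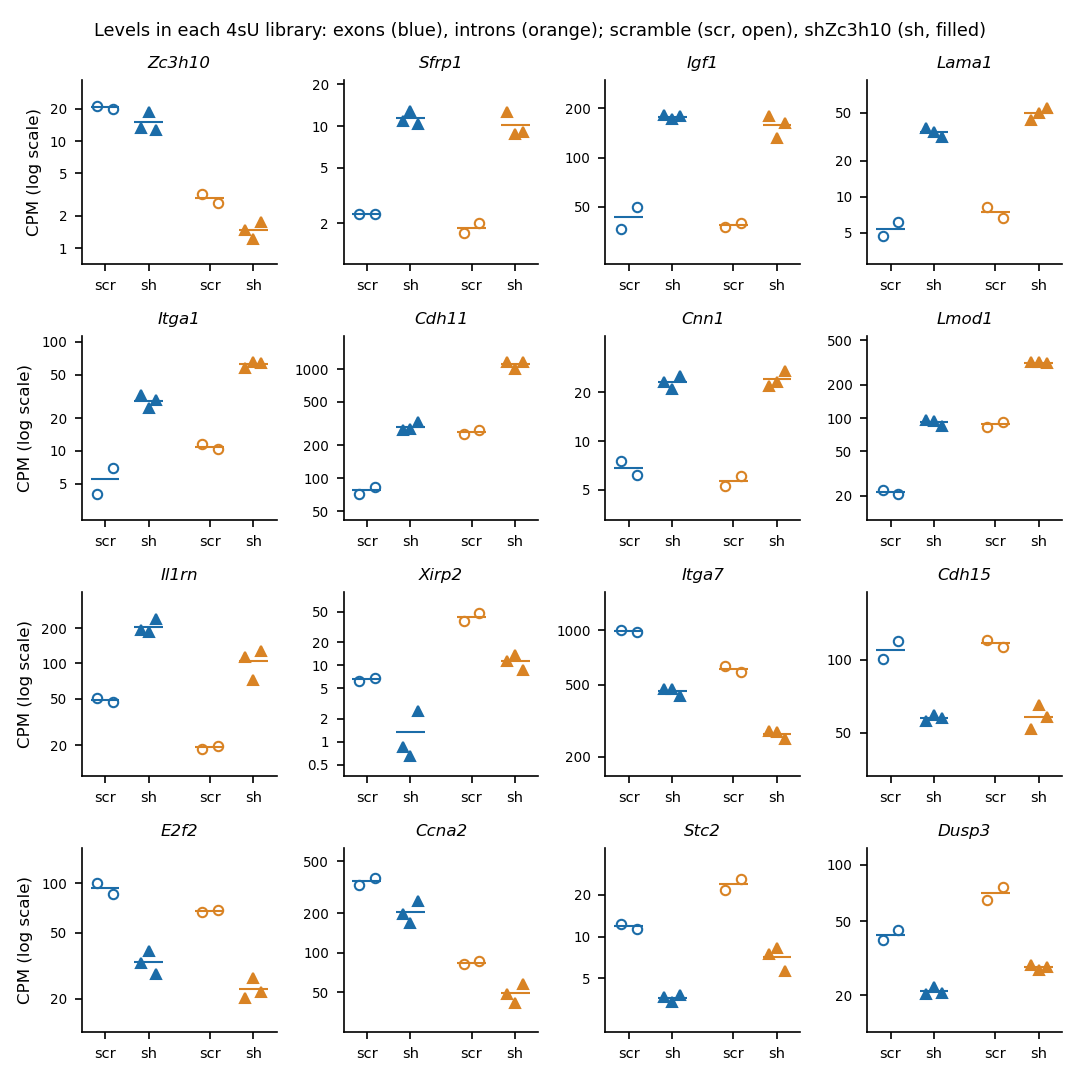
Level of 16 genes in each 4sU library in CPM on a log axis, exons in blue and introns in orange, scramble (scr) as open circles and shZc3h10 (sh) as filled triangles, with a bar at each group mean. In exons, Itga1 lies at 24.9 to 32.4 CPM in the shZc3h10 libraries against 3.99 and 6.96 CPM in the scramble libraries, and Itga7 at 432 to 475 CPM against 980 and 1010 CPM.

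Smooth muscle contractile genes had 11 higher and 2 lower of 21 in exons, and 13 higher and 1 lower of 21 in introns. Lmod1, which nucleates actin filaments in smooth muscle, stood at 96.7, 93.5 and 84.5 CPM in exons against 22.3 and 20.7 CPM, and at 317, 318 and 313 CPM in introns against 83.0 and 92.1 CPM, with log2 fold changes of 2.09 (SE 0.16) and 1.85 (SE 0.09). Cnn1, for calponin, stood at 23, 20.8 and 25.1 CPM in exons against 7.58 and 6.15 CPM and rose by 1.73 (SE 0.20) in exons and 2.08 (SE 0.16) in introns. The smooth muscle actin gene Actg2 rose by 1.45 and 1.48 and Myl9, whose CArG box is shown above, by 1.08 and 0.86. Acta2 rose by 1.05 in exons. The members that fell in exons were Tpm3 (−0.45) and Des (−0.67), the latter for the intermediate filament desmin of all muscle. The exonic count of 13 was 8 without scramble library 1.

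Genes of the striated sarcomere and of its calcium release had 5 higher and 14 lower of 52 in exons and 5 higher and 15 lower of 53 in introns. Xirp2, for an actin-binding protein of striated muscle, stood at 0.861, 0.657 and 2.55 CPM in exons against 6.26 and 6.74 CPM, and at 11.4, 13.6 and 8.71 CPM in introns against 37.8 and 48 CPM. These give log2 fold changes of −2.20 (SE 0.39, edgeR's adjusted p = 0.000749) and −1.94 (SE 0.17, edgeR's adjusted p = 1.29e-05). Myom1 (1.42 in exons, 1.35 in introns), Ryr3 (0.72 and 0.57) and Jph2 (0.70 and 0.42) rose against the family. The counts of 19 in exons and 20 in introns fell to 9 and 12 without scramble library 1. Intermediate filament genes were called only downwards, 6 of 16 in exons and 2 of 16 in introns (4 without shZc3h10 library 2), with the neurofilament gene Nefm at 11.6, 10.3 and 8.42 CPM in exons against 38.1 and 23.7 CPM.

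Among the transcription factors that set the muscle fate, the determination factors Myod1 (0.03, SE 0.15, in exons) and Myf5 (−0.14, SE 0.15) and the differentiation factor Myog (−0.22, SE 0.20) were not called in exons or introns, and the groups overlapped in exons. Of 29 myogenic genes, 0 were higher and 7 lower in exons, and 2 were higher and 8 lower of 26 in introns. The lower ones encode surface proteins rather than transcription factors: with Itga7 and Cdh15 fell 4 subunits of the muscle acetylcholine receptor. Chrnb1 stood at 74.8, 69.1 and 63.1 CPM in exons against 131 and 125 CPM, and at 40.3, 38.3 and 34.4 CPM in introns against 65.5 and 75.9 CPM. Chrnd (−0.91), Chrng (−0.55) and Chrna1 (−0.47) were lower in exons, and Lrrn1 (−0.91) was the remaining one. Pax7 rose in introns (0.49), where its exonic value of 0.34 was not called. The intronic count of 10 was 5 without scramble library 1.

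Defining markers of other cell types were checked in the same libraries. The summed exonic level of 6 myoblast markers was 779 to 857 CPM with shZc3h10 against 1470 to 1520 CPM with scramble, with Itga7 the most abundant of them and Des, Cdh15 and Itga7 called lower. The sum of 4 fibroblast markers was 580 to 703 CPM against 347 to 427 CPM, with Col1a1 and Pdgfra called higher, while Tcf21 had 0 exonic counts in every library and Thy1 at most 0.188 CPM. Of 4 adipocyte, 4 endothelial and 3 epithelial markers, 0, 1 and 1 had enough exonic counts to be tested and none of these was called, and Epcam had 0 exonic counts. In introns Fabp4, an adipocyte marker, was called higher (2.70, and 5.41 without scramble library 1) at 0.0331 to 2.02 CPM. Of 4 neuronal markers Tubb3 was tested in exons and called lower, and the exons of Rbfox3 and Syt1 stood at no more than 0.146 CPM. Of the 4 macrophage markers with an entry 2 were tested in exons and 0 called, with the exons of Adgre1 at no more than 0.502 CPM. In bulk RNA, fewer cells of a type and less RNA per cell cannot be told apart, and the part of these marker levels in the matrix and muscle results was not tested.

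Cell cycle genes fell with small folds over many members. Of 77 mitotic kinases, kinesins and kinetochore genes, 0 were higher and 24 lower in exons (median −0.42), and 0 were higher and 38 lower of 73 in introns (median −0.46). Cdk1, with the CHR elements shown above, stood at 99.4, 92.4 and 107 CPM in exons against 152 and 150 CPM, and at 197, 169 and 191 CPM in introns against 238 and 285 CPM. The log2 fold changes were −0.60 (SE 0.14) and −0.49 (SE 0.10), lost in exons without scramble library 1 (edgeR's adjusted p = 0.0598) and in introns without scramble library 2 (edgeR's adjusted p = 0.0661). Espl1, for the protease that separates sister chromatids, had 123, 90.0 and 98.6 CPM in exons against 170 and 174 CPM (−0.73, SE 0.15). Bub1 (−0.59 in exons, −0.49 in introns), a checkpoint kinase, and Smc2 (−0.65 and −0.48), a condensin subunit, fell in both. Mki67, the usual marker of cycling cells, was lower in introns (−0.41) and not called in exons (−0.27). In exons the count of 24 was 8 without scramble library 1, 6 without scramble library 2 and 11 without shZc3h10 library 3. The intronic count of 38 was 15, 22 and 25 in the same fits.

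Of the genes of the G1 phase, E2f2, for an activator of the S phase programme, stood at 32.9, 38.9 and 28.2 CPM in exons against 99.7 and 85.9 CPM, and at 20.4, 26.6 and 22 CPM in introns against 66.7 and 68.7 CPM. On the log2 scale the changes were −1.48 (SE 0.16, edgeR's adjusted p = 2.34e-06) and −1.56 (SE 0.12, edgeR's adjusted p = 5.26e-06). The cyclin gene Ccnd2 stood at 24.3, 21.7 and 24.4 CPM in exons against 54.5 and 47.4 CPM, and its partner kinase Cdk6 fell by 0.90 in exons and by 0.60 in introns. The atypical repressors E2f7 (−0.61 and −0.49) and E2f8 (−0.48 and −0.55) fell as well. In all, 0 of 26 genes were higher and 9 lower in exons (median −0.20), and 1 was higher, Rbl2 (0.37), and 10 lower of 25 in introns (median −0.33). The exonic count was 5 without scramble library 1, and 6 without scramble library 2, shZc3h10 library 1 or shZc3h10 library 3. The intronic count of 11 dropped to 4 when scramble library 1 was left out and to 7 when shZc3h10 library 1 was. Of all genes, 4.69% were called lower in exons and 6.57% in introns, out of 10.4% and 15.5% called in either direction. Replication genes had 5 lower of 59 in exons, 8.47%, and 12 lower of 58 in introns, 20.7%, with no member higher in either. Those counts were 2 and 5 without scramble library 1, 3 and 7 without scramble library 2, and the exonic one 3 without shZc3h10 library 1 and the intronic one 7 without shZc3h10 library 3. Histone genes, which share near-identical copies, had 1 lower of 39, H2afx (−1.12).

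Calls among feedback regulators of the MAP kinase pathway were downwards but for 1 gene in each part. Of 28 dual specificity phosphatases, Sprouty and Spred genes, 1 was higher and 10 lower in exons, and 1 higher and 8 lower of 22 in introns. Dusp3 stood at 20.3, 22.2 and 20.5 CPM in exons against 39.5 and 44.7 CPM, and at 29.2, 27.3 and 28.3 CPM in introns against 64.7 and 76.5 CPM, with log2 fold changes of −1.0 (SE 0.16) and −1.32 (SE 0.11). Dusp1, an immediate phosphatase of stress kinases, had 172, 193 and 321 CPM in exons against 602 and 391 CPM (−1.12, SE 0.21). Spry1 was the exception in exons (0.95), at levels that were close in 1 pair of libraries, 54.7, 95.9 and 97.4 CPM against 54.5 and 30.8 CPM. That call was lost without scramble library 2 (0.61, edgeR's adjusted p = 0.144) or shZc3h10 library 3 (edgeR's adjusted p = 0.052). The exonic count of 11 was 6 without either scramble library, 7 without shZc3h10 library 1, and 13 without shZc3h10 library 2. The intronic count of 9 was 5 without scramble library 1, and 6 without scramble library 2 or shZc3h10 library 1.

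Immediate early factors, which are induced within minutes of a stimulus, were called in both directions. Of 26, 6 were higher and 7 lower in exons. The higher ones were Egr1 (0.54), Egr2 (1.33), Egr3 (0.76), Fos (1.11), Nr4a1 (0.92) and Zfp36 (0.62), and the lower ones Jun (−0.76), Jund (−1.43), Fosl1 (−0.57), Klf2 (−1.16), Klf4 (−0.83), Nr4a2 (−0.65) and Atf3 (−1.37). Without scramble library 1, Jund was at −0.56 (edgeR's adjusted p = 0.576). Jun had 181, 211 and 190 CPM against 391 and 267 CPM, and its log2 fold change became −0.46 without scramble library 1 and was no longer called (edgeR's adjusted p = 0.159). Egr1 had 2210, 3010 and 3300 CPM against 2010 and 1900 CPM, lost without either scramble library (edgeR's adjusted p = 0.0921 and 0.119) or without shZc3h10 library 3 (edgeR's adjusted p = 0.173). Of these genes, Jun, Jund and Klf2 have no intron entry. The exonic count of 13 was 8 without scramble library 1.

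The integrated stress response raises the translation of ATF4, which then switches on genes for amino acid supply. Its genes had 0 higher and 7 lower of 26 in exons, and 0 higher and 4 lower of 21 in introns. The largest exonic falls were those of Stc2 (−1.71), for a stress-induced secreted glycoprotein, and Gdf15 (−1.70), for a stress cytokine. Asns, with the element shown above, stood at 52.9, 43 and 54.2 CPM in exons against 82.1 and 69.4 CPM, and at 65.1, 58.1 and 57.9 CPM in introns against 81.9 and 81.4 CPM. Its log2 fold changes of −0.60 (SE 0.15) and −0.43 (SE 0.10) lost their calls without scramble library 1 (edgeR's adjusted p = 0.208 and 0.0879). The family's exonic count was 2 and its intronic count 3 in that fit. Enzymes of serine, proline and one-carbon metabolism had 1 higher and 5 lower of 23 in exons, with the serine pathway enzymes Phgdh (−0.67 in exons, −0.77 in introns) and Shmt2 (−0.68 and −0.68) lower, and 2 called without scramble library 1. Amino acid and neurotransmitter transporters went both ways in exons, 5 higher and 4 lower of 35. In introns 11 were higher and 1 lower of 40, and that count of 12 was 8 without shZc3h10 library 1 or shZc3h10 library 3. Slc7a2, for an arginine carrier, rose from 45.7 and 55.2 CPM to 152, 126 and 167 CPM in exons (1.56, SE 0.16), with 1.39 (SE 0.11) in introns.

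Endoplasmic reticulum chaperones were called only downwards, 5 of 33 in exons and 8 of 31 in introns. Hyou1 (−0.61 in exons, −0.55 in introns) and Creld2 (−0.57 and −0.82) fell in both, with Hyou1 at −0.32 in exons without scramble library 1 (edgeR's adjusted p = 0.461). The exonic count was 0 without scramble library 1, 1 without shZc3h10 library 1 and 2 without shZc3h10 library 3, and the intronic count 1 without scramble library 1, 4 without shZc3h10 library 1 and 5 without scramble library 2. Heat shock genes had 3 higher and 8 lower of 52 in exons, with Hspa4l at −0.83 in exons and −0.62 in introns, and 5 called without scramble library 1 and 6 without shZc3h10 library 1 or 3.

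The series is concerned with mitochondria. In exons, where 10.4% of all genes were called, 0 of 76 mitochondrial ribosomal protein genes, 0 of 49 genes of respiratory complexes II to V, 0 of 39 import and protease genes, 0 of 27 biogenesis, dynamics and mitophagy genes and 0 of 17 mitochondrial tRNA synthetase genes were called. In introns, where 15.5% of all genes were called, the same families had 1 of 68, 2 of 49, 1 of 37, 0 of 23 and 0 of 16. Of 44 complex I genes, 1 was called in exons, Ndufv3 (0.80), and of 41 in introns 1. The exonic medians of these families lay between −0.10 and 0.10. With 1 library left out, none of these families had more than 4 calls in either part. Mitochondrial carriers of the Slc25 class had 1 higher, Slc25a17 (0.64), and 3 lower, Slc25a24 (−0.51), Slc25a30 (−0.50) and Slc25a39 (−0.52, and −0.24 without scramble library 1), of 42 in exons, 9.52%, and 3 higher and 4 lower of 42 in introns, 16.7%. Those shares are near those of all genes. The exonic count was 1 without scramble library 1, scramble library 2 or shZc3h10 library 3, and 2 without shZc3h10 library 1. The intronic count of 7 was 1 without scramble library 1, and 4 without scramble library 2 or shZc3h10 library 3. Tfam, which packages mitochondrial DNA, stood at 28.7, 29.5 and 28 CPM in exons against 26.0 and 30.0 CPM, with overlapping groups. Of all genes, 10.4% were called in exons in either direction and 5.66% were called higher. Of 22 iron genes, 3 were higher in exons and 0 lower, 13.6%. They are Slc40a1 (0.76), for the iron exporter ferroportin, Slc39a14 (0.58), for a zinc and iron importer, and Cp (0.54), for the ferroxidase ceruloplasmin. The exonic count was 0 without shZc3h10 library 3, 1 without scramble library 1, and 2 without scramble library 2 or shZc3h10 library 1. In introns 2 of 21 were called, 9.52% against 15.5%: Cp rose (0.62) and the ferritin gene Ftl1, which has many processed copies, fell (−0.64). Of 14 cardiolipin genes, 1 was lower in exons, Acsl4 (−0.49), an acyl-CoA synthetase listed for its part in remodelling. Acsl4 in exons stood at 563, 462 and 486 CPM against 757 and 657 CPM, while its introns stood at 354, 303 and 333 CPM against 292 and 298 CPM. The difference between these changes, −0.65, was not called (edgeR's adjusted p = 0.0581), and the exonic call was lost without scramble library 1 (edgeR's adjusted p = 0.274). The gene for cardiolipin synthase, Crls1, was at −0.52 (SE 0.21, edgeR's adjusted p = 0.123) in exons.

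Glycolysis genes had 2 higher and 4 lower of 28 in exons and 3 higher and 8 lower of 26 in introns. The regulators Pfkfb3 (0.63 in exons, 0.87 in introns) and Pfkm (0.49 and 0.46) rose, and Pfkp (−0.52 and −0.43) fell. The exonic count of 6 was 0 without shZc3h10 library 3, 1 without scramble library 1, 3 without scramble library 2 and 4 without shZc3h10 library 1, and the intronic count of 11 was 4 and 5 without scramble library 1 or 2 and 7 without shZc3h10 library 3. Cytosolic ribosomal protein genes, which have many processed copies, had 0 called of 82 in exons with a median of −0.02. Of 79 tested for the difference between exons and introns, 0 were called, against 0.11% of all genes. In introns their median was −0.38, with 5 lower of 79, and with 0 called without scramble library 1 or shZc3h10 library 1, 3 without shZc3h10 library 3 and 8 without shZc3h10 library 2.

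Of 328 zinc finger genes named Zfp, 5.49% were called in exons, and of 36 Zbtb genes 5.56%, both under the 10.4% of all genes. The 18 Zfp calls became 6 without scramble library 1, 8 without shZc3h10 library 3 and 28 without shZc3h10 library 2. Of 28 CCCH genes, the class of Zc3h10, 2 were higher and 1 lower in introns, 10.7%, under the 15.5% of all genes. Of all genes, 10.4% were called in exons in either direction and 5.66% were called higher. In exons 2 of 28 CCCH genes were higher, Zfp36 (0.62) and Zfp36l1 (0.63), and 0 were lower, 7.14%. Both encode proteins that destabilise AU-rich mRNA. The CCCH count was 0 without scramble library 2, 1 without shZc3h10 library 3, 3 without shZc3h10 library 1 and 4 without shZc3h10 library 2, and Zfp36l1 was at 0.40 without scramble library 2 (edgeR's adjusted p = 0.245). The Zbtb count of 2 was 0 without scramble library 1, shZc3h10 library 1 or shZc3h10 library 3. Nuclear receptors had 4 higher and 3 lower of 32 in exons and 8 higher and 3 lower of 36 in introns, 21.9% and 30.6%, with Esr1 (1.17 and 1.11) higher in both. The exonic count of 7 was 4 without shZc3h10 library 3, and the intronic count of 11 dropped to 6 when scramble library 1 was left out and to 7 when shZc3h10 library 1 was. Hox genes, which specify position along the body, had 1 higher of 17 in exons, Hoxc8 (0.87), and 4 higher of 11 in introns, where at most 2 were called with any 1 library left out. Long non-coding RNA genes and loci with Gm or Rik names were called in 6.78% of 546 in exons, 37 genes, with 14 called without scramble library 1, 20 without scramble library 2 and 18 without shZc3h10 library 3.

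Of 73 microRNA genes tested in exons, 3 were called, and 5 without shZc3h10 library 2. The share of 4.11% was under the 10.4% of all genes. Counts over such loci come from the precursor or from a host transcript and not from the mature miRNA. Mir143 (1.41, SE 0.25) and Mir145a (1.57, SE 0.21), known for their abundance in smooth muscle, rose. Mir145a stood at 16.1, 18 and 20.4 CPM against 5.30 and 7.03 CPM. Mir1941 fell by 0.93 (SE 0.23) in exons, a call that was lost without scramble library 2 (edgeR's adjusted p = 0.0883), and by 1.18 (SE 0.18) in introns.

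Among genes called in introns without overlap between groups and with a mean intronic level at or above the median, some rose by more than 2 on the log2 scale. Nkd2 (2.87), Lama1 (2.73), Emid1 (2.58), Itga1 (2.50), Il1rn (2.45), Aff3 (2.25), Zfp423 (2.18), Npr3 (2.15), Pcdh18 (2.07) and Cdh11 (2.06) were the 10 with the largest rises. Zfp423, for a multi-zinc-finger factor of mesenchymal precursors, stood at 71.9, 80.5 and 77.4 CPM in introns against 15.0 and 19 CPM, and at 11.4, 12.9 and 8.42 CPM in exons against 2.63 and 1.83 CPM. The largest falls were those of Sema3c (−1.97), Xirp2 (−1.94), Tmem182 (−1.84), Map3k7cl (−1.65), Aig1 (−1.64), Cmah (−1.59), E2f2 (−1.56), Vwc2l (−1.56), L1cam (−1.54) and Prrg4 (−1.53). Tmem182, for a membrane protein of muscle, stood at 7.86, 10.2 and 8.57 CPM in introns against 32.0 and 31.4 CPM, and at 3.44, 2.72 and 3.73 CPM in exons against 9.09 and 9.38 CPM. Of these 20 genes, Vwc2l alone was not called in exons (−1.12, edgeR's adjusted p = 0.0543). Each of the 20 intronic calls held with any 1 library left out.

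Exonic and intronic changes of a gene come from the same libraries, and the difference between them was tested with the library as a term. Of 11803 genes tested in both, 13 differed, 0.11%. In 5 of them (0.0424%) exons changed upwards relative to introns, and in 8 (0.0678%) downwards. Fgd4, for an activator of the GTPase Cdc42, had 617, 693 and 518 CPM in exons with shZc3h10 against 486 and 554 CPM, and 19.6, 20.6 and 19.6 CPM in introns against 38.5 and 42.8 CPM. Its exonic levels overlapped between groups (0.23, SE 0.15) while its introns fell by 1.03, a difference of 1.25 (edgeR's adjusted p = 0.0012). The same direction was found for S100a11 (0.17 in exons, −0.61 in introns), Zfp697 (−0.12 and −0.98), Dlgap1 (0.60 and −0.64) and the metallothionein gene Mt1 (−0.19 and −1.54). Itga3, for a laminin receptor chain, had 126, 146 and 141 CPM in exons against 167 and 205 CPM, and 42.1, 56.3 and 47.7 CPM in introns against 31.2 and 33.3 CPM. Its introns rose (0.59), its exonic value of −0.44 was not called by itself (edgeR's adjusted p = 0.0548), and the difference was −1.02 (edgeR's adjusted p = 0.00559).

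The other genes whose introns changed upwards relative to exons were Veph1 (0.10 in exons, 1.97 in introns), Epha5 (−0.17 and 3.63), Tmem63a (−0.16 and 0.62), Adam19 (−0.26 and 0.49), Slc6a6 (−0.43 and 0.22), Kif5c (−0.29 and 0.43) and Bcap29 (−0.51 and 0.32). The exonic value of Bcap29 was −0.30 without scramble library 1. The introns of Epha5 were thinly covered, at 1.62, 3.09 and 0.968 CPM against 0.162 and 0.132 CPM. Only the calls for Fgd4 and Itga3 held with each library left out in turn. The count was 2 without scramble library 1, 4 without shZc3h10 library 1, 6 without shZc3h10 library 3 and 23 without scramble library 2. Without regard to multiple testing, 1057 genes had p below 0.05. On data simulated with 200 genes changed 2-fold between exons and introns, the same test recovered 54%. The simulation raised exons only, drew exons and introns independently and gave all genes of a part the same variability. The share recovered in these libraries may therefore differ.

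**Figure D4:**
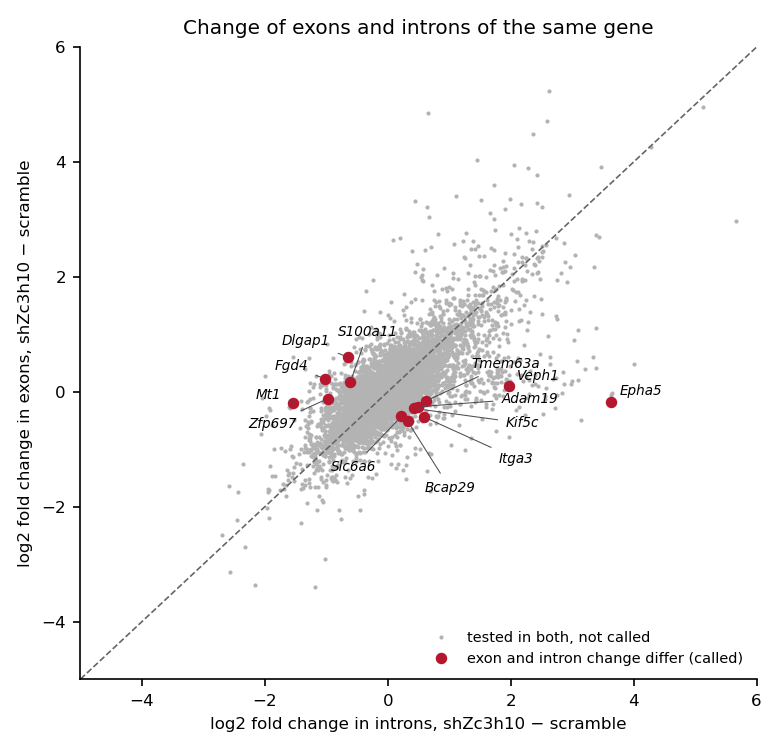
Log2 fold change in exons (vertical) against that in introns (horizontal) for the 11803 genes tested in both, with the 13 genes whose changes differ in red. The dashed line marks equal change. Fgd4 lies at 0.23 in exons and −1.03 in introns, and Epha5 at −0.17 and 3.63.

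The genes named here differ in how far their calls rest on 1 library. Of 121 genes named as called in exons, 65 were called in each of the 5 fits that leave out 1 library, and of 107 named as called in introns, 79 were. Leaving out scramble library 1 ended the exonic calls of 45 genes: Acsl4, Asns, Bcap29, Cdk1, Chrna1, Chrng, Cish, Cp, Creld2, Des, E2f7, E2f8, Egr1, Ereg, Fosl1, Gbp9, Gdf15, H2afx, Hoxc8, Hyou1, Igfbp2, Igfbp6, Il6st, Jph2, Jun, Jund, Klf2, Lgr6, Myom1, Nr4a2, Pfkfb3, Pfkm, Pfkp, Phgdh, Plxnd1, Ryr3, Shmt2, Slc25a24, Slc25a30, Slc25a39, Slc39a14, Slc6a6, Tpm3, Wnt10b and Wnt9a (edgeR's adjusted p from 0.0517 to 0.626). With scramble library 2 left out, 26 exonic calls were lost, those of Areg, Bub1, Chrna1, Chrng, Creld2, Dkk2, E2f8, Egr1, Fosl1, Hoxc8, Mir1941, Ndufv3, Nr4a2, Pfkfb3, Pfkp, Slc25a17, Slc25a24, Slc25a30, Slc40a1, Slc6a6, Smc2, Spry1, Tpm3, Wnt9a, Zfp36 and Zfp36l1 (edgeR's adjusted p from 0.0504 to 0.272). In the fit lacking shZc3h10 library 1, 16 genes were no longer called in exons, namely Bcap29, Chrna1, Chrng, Cp, Creld2, E2f8, Fosl1, Igfbp6, Nr4a2, Pfkm, Ryr3, Slc25a17, Slc25a39, Slc6a6, Tpm3 and Wnt9a (edgeR's adjusted p from 0.0542 to 0.0951). Leaving out shZc3h10 library 2 ended the exonic calls of 9 genes: Acsl4, Bcap29, Chrng, Creld2, Hoxc8, Igfbp6, Nr4a2, Pfkp and Slc25a30 (edgeR's adjusted p from 0.0554 to 0.0954). With shZc3h10 library 3 left out, 28 exonic calls were lost, those of Acsl4, Areg, Bcap29, Chrna1, Chrng, Cp, Dkk2, E2f7, E2f8, Egr1, Fosl1, Gbp9, Ndufv3, Nr4a2, Pfkfb3, Pfkm, Pfkp, Plxnd1, Slc25a24, Slc25a30, Slc25a39, Slc39a14, Slc40a1, Slc6a6, Spry1, Tpm3, Wnt10b and Zfp36l1 (edgeR's adjusted p from 0.0511 to 0.223).

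Among the genes named here, fewer intronic calls were lost. Over all genes, neither part kept the larger share of its calls in every fit. Without shZc3h10 library 1, 70.5% of intronic and 73.7% of exonic calls were kept. The shares were 92.6% and 90.9% without shZc3h10 library 2, and 66.6% and 62.7% without shZc3h10 library 3. Leaving out scramble library 1 ended the intronic calls of 23 genes: Adam19, Adamtsl5, Areg, Asns, Bub1, Chrna1, Cish, Creld2, E2f7, Ereg, Ftl1, Gbp9, Hbegf, Hyou1, Itga3, Jph2, Kif5c, Mki67, Mt1, Pax7, Pfkm, Rbl2 and Smc2 (edgeR's adjusted p from 0.0557 to 0.342). With scramble library 2 left out, 13 intronic calls were lost, those of Bub1, Cdk1, Fabp4, Hyou1, Itga10, Jph2, Kif5c, Mki67, Pfkm, Pfkp, Rbl2, Shmt2 and Smc2 (edgeR's adjusted p from 0.0613 to 0.244). In the fit lacking shZc3h10 library 1, 9 genes were no longer called in introns, namely Adamtsl5, Cish, Fabp4, Gbp9, Hyou1, Itga10, Pfkm, Rbl2 and Shmt2 (edgeR's adjusted p from 0.0503 to 0.113). Leaving out shZc3h10 library 3 ended the intronic calls of 11 genes: Bub1, Cish, Fabp4, Gbp9, Hbegf, Hyou1, Mki67, Pfkm, Pfkp, Rbl2 and Smc2 (edgeR's adjusted p from 0.0575 to 0.127). No intronic call named here was lost without shZc3h10 library 2.

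The share of genes called rose with the span of the gene on the genome. Spans were taken from GENCODE on GRCm38 and were found for 95.8% of genes tested in exons and 98.1% of those tested in introns. In introns, 7.26% of the genes in the shortest of 5 equal bins were called and 29.2% of those in the longest, and the direction changed along the way, from 59 higher and 134 lower genes in the shortest bin to 566 higher and 211 lower in the longest. In exons the shares were 8.22% and 16.9%, with 96 higher and 119 lower genes in the shortest bin and 293 higher and 149 lower in the longest. The median log2 fold change of the bin went from −0.16 to 0.20 in introns and from −0.05 to 0.07 in exons. Level moved with the share as well, from 4.76% in the lowest of 5 bins by mean CPM to 23.6% in the highest in introns, and from 5.68% to 14.3% in exons. In the lowest intronic bin, 122 genes were higher and 7 lower, with a median log2 fold change of 0.54. Introns of some long neuronal genes without exonic signal were also uneven between libraries. Rbfox3 had 4.63, 8.67 and 2.55 CPM in introns with shZc3h10 and 0.185 and 2.58 CPM with scramble, and Syt1 had 2.29, 6.29 and 1.85 CPM against 0.209 and 1.85 CPM, neither of them called. In both genes scramble library 1 was the lowest and shZc3h10 library 2 the highest. The intronic share of counts, given above, was also higher in the shZc3h10 libraries, and the part of that share and of these uneven introns in the pattern by span, in the upward lean of the intronic calls and in the exon-minus-intron calls for Epha5 and Veph1 was not tested.

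**Figure D5:**
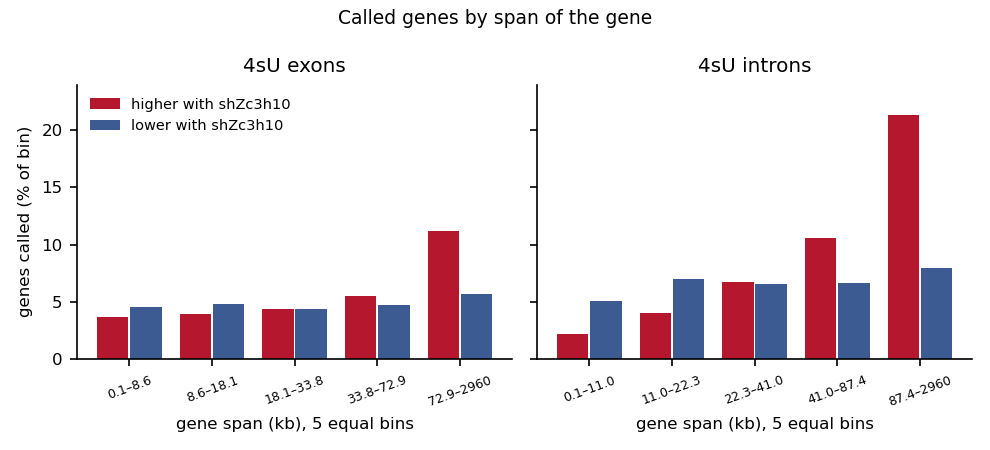
Percent of genes called higher (red) and lower (blue) in 5 equal bins of gene span in kb, for exons (left) and introns (right). In the longest bin, 21.3% of genes are higher and 7.94% lower in introns, against 2.22% and 5.04% in the shortest.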

How the data were processed

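RNA from 5 libraries of 4sU RNA was analysed. The deposited values are whole-number read counts per gene over exons and over introns, with Entrez identifiers per the file headers. Alignment was to mm9 with TopHat2 2.0.8 and TopHat, per the submitters' processing notes. Which program and annotation counted the reads, and whether strand was used, is not given in the sources used here, so overlapping genes, antisense partners and near-identical copies have uncertain counts.

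Counts were filtered with filterByExpr (minimum count 10, minimum total 15), scaled by TMM and tested with edgeR 4.0.16 (quasi-likelihood) in R 4.3.3 with Benjamini-Hochberg adjustment. The SE was derived from the F statistic. Exons and introns were fitted separately, and their difference in a joint model with library, part and the interaction of part and hairpin. DESeq2 1.42.0, other scalings, no filter, a replicate block and leaving out each library were tried. On data simulated with 200 genes raised 2-fold and the same variability for all genes, the exonic test recovered 82% and the intronic test 78%. Chi-square per degree of freedom between replicates was 11 to 19.2 in exons and 12.8 to 21.1 in introns, so no library repeats another.

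The comparison and the lists were chosen with earlier results of these data known. The patterns that place genes in families were corrected, and some families renamed, after the counts had been read. The naming rule takes, per family, up to 3 genes each way with the largest change among calls without overlap between groups, plus the 10 largest intronic changes and 8 largest exon-minus-intron changes each way at or above the median level, and the cell type markers. It names more genes than the text does. Other genes named were chosen after their values were seen, as were the families, motifs and promoters shown. One result is not reported here.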

Additional observations from a re-analysis of the deposited data

How the results depend on the processing

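No gene called in exons, in introns or in their difference changed sign under the alternatives run. The 1412 exonic calls became 724 to 1734 and the 2103 intronic calls 935 to 2586 with 1 library left out. For the difference between exons and introns, 13 calls became 44 with DESeq2, 145 with no filter on low counts and 2 to 23 with 1 library left out. With 1 TMM scaling over exons and introns together, 9 of these 13 genes were called. Exons changed upwards relative to introns in 5 of them and downwards in 4, in place of 5 and 8. Values that were not called and changed sign lay near 0. Epha5 in exons (−0.17) was 0.05 with the replicate block. With 1 library left out, exonic values ran from −0.37 to 0.06 for Epha5, −0.41 to 0.08 for Mt1, −0.10 to 0.18 for Myod1, −0.52 to 0.19 for Myog, −0.01 to 0.24 for Veph1 and −0.31 to 0.11 for Zfp697. The cause of these changes was not tested.

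With the replicate number as a block, 809 genes were called in exons (469 higher, 340 lower) and 1894 in introns (1277 higher, 617 lower, 67.4% higher against 57.7% without the block). Libraries share only a number: the deviations of same-numbered libraries correlated at −0.12 and −0.17 in exons and at 0.04 and 0.26 in introns, over 2 pairs. With 3 libraries against 2, small folds and low counts limit what can be called.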
